A study of Homo sapiens with 18 samples.

Results

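The BCL2 family decides whether a cell keeps or opens its outer mitochondrial membrane, and 10 of its genes were followed here through 6 groups of 2 human leukemia cell lines. They were taken from a table of read counts with 18670 genes as the rows whose Ensembl identifiers map to BCL2, BCL2L1, MCL1, BCL2A1, BCL2L2, BAX, BAK1, BCL2L11, BBC3 and PMAIP1, and all 10 were found. Each had enough counts to be tested in all 7 comparisons described here.

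U937 and THP-1 are established human myeloid leukemia lines with monocytic features. They are named here as labelled, and 1 gene described with the comparison of the lines goes against the THP-1 label. U937 cells carried either an empty lentiviral vector or a lentiviral knockdown of S100A9, a calcium-binding protein of myeloid cells (labelled shS100A9). THP-1 cells carried either an empty lentiviral vector or S100A9 overexpression, and each of these was profiled without drug and after 36 hours in 1 µM Adavivint. All cells had been selected in 2 µg/mL puromycin after transduction, the vector controls included, and each of the 6 groups held 3 libraries. Adavivint, also called lorecivivint, is a small-molecule inhibitor of CLK and DYRK kinases, which act on splicing factors and other substrates, and it was developed as an inhibitor of WNT signalling. The sources used here do not give the promoters or hairpin sequences of the vectors, or say whether the selected cells were clones or pools. No label says whether the 3 libraries of a group came from separate cultures, so the p-values measure the spread between these libraries, which may be technical.

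The family works through binding between its members. The survival proteins BCL2, BCL-xL (BCL2L1), MCL1, BFL-1 (BCL2A1) and BCL-w (BCL2L2) hold the effectors BAX and BAK (BAK1) in check, and free effectors form pores that release cytochrome c and start the caspases. The BH3-only proteins BIM (BCL2L11), PUMA (BBC3) and NOXA (PMAIP1) bind into the groove of the survival proteins, NOXA mainly in that of MCL1, and BIM and PUMA can also activate the effectors directly. In acute myeloid leukemia BCL2 is the target of venetoclax, and a shift of reliance to MCL1, BCL-xL or BFL-1 is a known route to resistance. MCL1 and NOXA are short-lived proteins, so their RNA and protein need not run in parallel, and only RNA was measured here.

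All 10 are protein-coding genes of separate loci, and counts cover whole genes, with positions here from GENCODE 29 on GRCh38. Of the survival genes the annotation places BCL2 (ENSG00000171791) at chr18:63123346-63320128 on the minus strand, BCL2L1 (ENSG00000171552) at chr20:31664452-31723989 on the minus strand and MCL1 (ENSG00000143384) at chr1:150574551-150579738 on the minus strand. It places BCL2A1 (ENSG00000140379) at chr15:79960889-79971446 on the minus strand and BCL2L2 (ENSG00000129473) at chr14:23298790-23311759 on the plus strand. The effectors are BAX (ENSG00000087088) at chr19:48954815-48961798 on the plus strand and BAK1 (ENSG00000030110) at chr6:33572547-33580293 on the minus strand. Of the BH3-only genes it places BCL2L11 (ENSG00000153094) at chr2:111119378-111168447 on the plus strand, BBC3 (ENSG00000105327) at chr19:47220822-47232766 on the minus strand and PMAIP1 (ENSG00000141682) at chr18:59899948-59904306 on the plus strand.

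The DNA just before the start sites of the effectors and BH3-only genes is shown first, since these genes changed in different directions below. RefSeq promoter windows of GRCh38.p14, from 250 bases before to 50 bases after a gene's start, were found for 8 of the 10 genes, with 2 windows for BCL2L1. Both strands were searched for CACGTG (the E-box bound by MYC and related factors) and TGTTTAC (the forkhead motif of the FOXO factors). They were also searched for TGATGCAA (an amino acid response element of the ATF4 and CHOP kind) and TGACGTCA (the cAMP response element). The last motif searched was only a narrow form of the NF-kB consensus. None of these motifs overlapped another in the windows found. The search covered all 300 bases of a window, and of the 250 before the start only those outside every GENCODE 29 exon of the gene are printed, each 5′ to 3′ on the gene's own strand with matches in capitals.
BAX (chr19:48954625-48954814, plus strand, bases -250 to -61): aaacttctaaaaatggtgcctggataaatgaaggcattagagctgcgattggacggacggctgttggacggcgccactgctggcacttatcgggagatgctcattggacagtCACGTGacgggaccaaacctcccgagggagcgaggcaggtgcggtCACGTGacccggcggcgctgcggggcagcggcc
BAK1 (chr6:33580294-33580526, minus strand, bases -250 to -18): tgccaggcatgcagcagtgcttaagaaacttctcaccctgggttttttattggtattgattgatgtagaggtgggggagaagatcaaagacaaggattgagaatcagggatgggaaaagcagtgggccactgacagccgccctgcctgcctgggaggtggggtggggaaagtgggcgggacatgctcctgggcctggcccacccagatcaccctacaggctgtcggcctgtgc
BCL2L11 (chr2:111120664-111120913, plus strand, bases -250 to -1): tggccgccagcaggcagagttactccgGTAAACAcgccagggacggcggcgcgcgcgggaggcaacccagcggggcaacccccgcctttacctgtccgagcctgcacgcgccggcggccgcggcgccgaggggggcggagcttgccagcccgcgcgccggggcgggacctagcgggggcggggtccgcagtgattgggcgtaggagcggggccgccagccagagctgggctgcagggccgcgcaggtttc
BBC3 (chr19:47232767-47232917, minus strand, bases -250 to -100): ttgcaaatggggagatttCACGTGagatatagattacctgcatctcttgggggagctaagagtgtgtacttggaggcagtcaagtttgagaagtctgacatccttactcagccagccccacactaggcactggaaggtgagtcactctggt
PMAIP1 (chr18:59899746-59899947, plus strand, bases -250 to -49): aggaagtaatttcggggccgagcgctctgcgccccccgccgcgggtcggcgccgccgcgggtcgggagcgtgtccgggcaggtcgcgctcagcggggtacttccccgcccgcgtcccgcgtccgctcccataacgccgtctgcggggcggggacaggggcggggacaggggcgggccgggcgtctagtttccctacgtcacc

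The BAX window held 4 copies of CACGTG, beginning at bases -138, -93, -45 and -14, of which the latter pair lies within an annotated exon and is not printed. At least 1 copy was present in 7.256% of the 35116 RefSeq windows and at least 4 copies in 5 of them (0.01424%), the BAX window among these. BBC3 held 1 copy at base -232. BCL2L11 held TGTTTAC on the opposite strand at base -223 (printed as GTAAACA), which 3.423% of all windows hold on either strand. BCL2A1 held TGATGCAA at base -63, a motif of 0.8657% of all windows. The BAK1, PMAIP1, BCL2 and BCL2L1 windows held none of the 5 motifs. TGACGTCA (1.848% of all windows) and the narrow NF-kB form (0.5582%) were in none of the windows of these genes. Other forms of the NF-kB motif were not searched, so their absence is not shown for any window, that of BCL2A1 included. The windows of BCL2 and BCL2A1 lie wholly in annotated exons and are not printed. A match describes letters in this window and not a bound site, and no binding was measured.

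Library totals ran from 38433169 to 84409062 counts. S100A9 ran from 4.55 to 7.05 CPM (counts per 1000000, scaled over all 18 libraries) in U937 with empty vector and from 0.0604 to 0.400 with the knockdown. In THP-1 it ran from 3.87 to 9.25 CPM with empty vector, from 26.0 to 29.2 with overexpression, from 12.8 to 15.0 with Adavivint and from 102 to 112 with both, so the S100A9 levels matched the vector labels. The second U937 empty vector library and the third U937 knockdown library stood apart: chi-square per degree of freedom between library pairs was 141 to 235 for pairs with 1 of these, against 8.33 and 13.6 for the other U937 pairs and 7.43 to 39 for the THP-1 pairs. All 12 markers of myeloid lines were detected in each group, with summed levels of 1132 to 1579 CPM in untreated and 1850 to 2013 CPM in Adavivint-treated libraries. MPO was low everywhere (0.45 to 5.42 CPM) and CD14 was at most 0.489 CPM in every untreated library. Summed markers of erythroid, lymphoid, platelet, stromal and epithelial cells did not exceed 14.75 CPM in any library.

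Compared per kilobase of exon, MCL1 was the most abundant of the 10 RNAs in each of the 6 groups. It stood at 49.7 ± 3.78 CPM per kb (SD, n = 3) in THP-1 with empty vector, ahead of BAK1 at 20.1 ± 0.313, BAX at 19.4 ± 1.24 and PMAIP1 at 15.5 ± 0.144. BCL2L1 at 14.1 ± 1.32, BCL2 at 12.9 ± 0.458, BCL2L11 at 10.6 ± 0.550 and BCL2A1 at 9.87 ± 0.827 CPM per kb followed. BCL2L2 (5.83 ± 0.756) and BBC3 (1.79 ± 0.199) were lowest. In U937 with empty vector MCL1 again led at 42.6 ± 2.09 CPM per kb, but BCL2A1 was next at 21.9 ± 12.0, a mean that the second library raises, and BCL2 was among the 3 lowest at 6.75 ± 0.574. After Adavivint in THP-1 with empty vector, BCL2 was the lowest of the 10 at 1.15 ± 0.0840 CPM per kb, below BBC3 at 3.22 ± 0.410. Exon length here joins all annotated exons of a gene, and the rank of BCL2 rests on it. Without division by length, BCL2 at 79.5 CPM in U937 and 152 CPM in THP-1, both with empty vector, was below only MCL1 (186 and 217 CPM). After Adavivint with empty vector BCL2 was at 13.5 CPM, above PMAIP1 (12.9), BBC3 (10.2) and BCL2A1 (7.10).

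**Figure D1:**
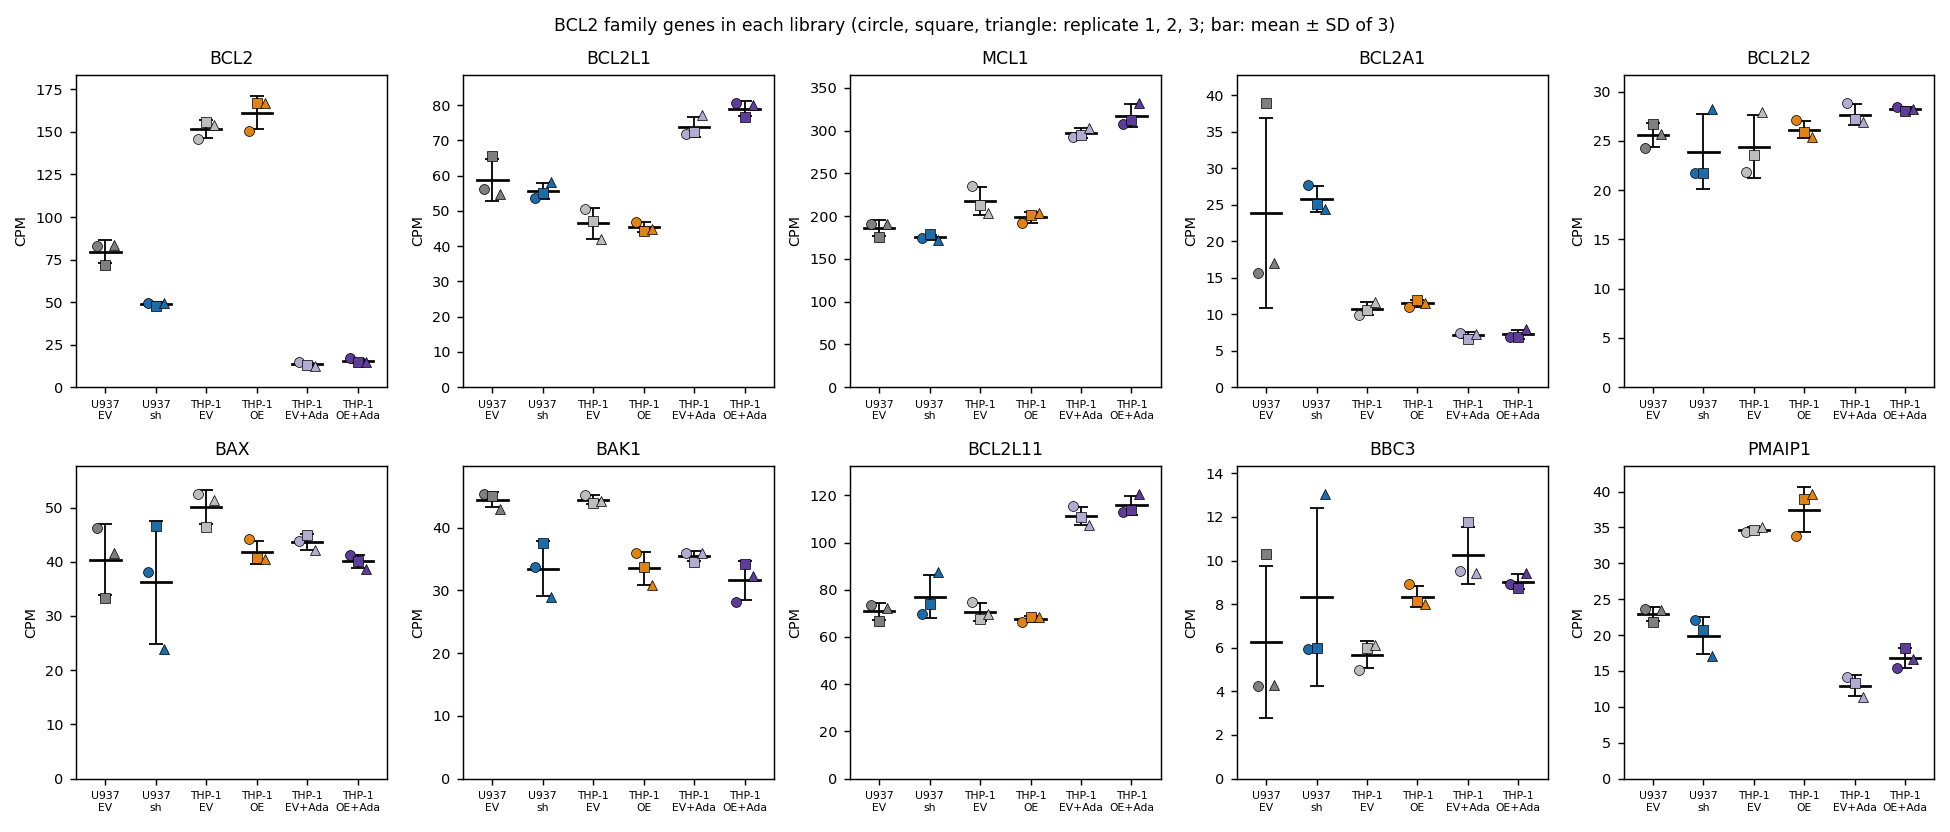
CPM of each of the 10 genes (linear y axis from 0, own scale per panel) in the 18 libraries, by group (EV, empty vector; sh, shS100A9; OE, S100A9 overexpression; Ada, Adavivint). Symbols are single libraries and bars the mean ± SD of 3; BCL2 lies between 12.8 and 16.9 CPM in the 6 Adavivint libraries, below the lowest U937 knockdown library at 47.5 CPM.

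Relative to the other RNA of the libraries, Adavivint lowered BCL2 about 11-fold in THP-1 cells, the largest change of the 10 genes. On the same relative scale it lowered PMAIP1 and BCL2A1, while BCL2L1, MCL1 and BCL2L11 rose. These 6 genes passed the test in the same direction in empty vector and in overexpressing cells. How many of all genes did so was not counted. With empty vector all 10 genes passed an adjusted p of 0.05 in edgeR's quasi-likelihood test with Benjamini-Hochberg adjustment over all 15403 genes tested, 5 higher and 5 lower. Of all genes tested 85.3% passed, 44.2% higher and 41.1% lower, so a call alone does not set these 10 apart. With overexpression 6 passed, 3 higher and 3 lower, where 84.7% of all genes did (43.4% higher, 41.3% lower). The median absolute log2 fold change of the 10 was 0.63 and 0.67, against 0.96 and 0.98 over all genes. The 12 myeloid markers went both ways in the same libraries. With empty vector 5 were higher and 5 lower (median log2 fold change 0.04), among them CD14 (5.87, from at most 0.489 CPM to between 20.1 and 22.3 CPM over both drug groups), LYZ (1.04), CD33 (-1.93), ITGAM (-1.83), FCGR1A (-1.80) and CD68 (-0.63). With overexpression 4 were higher and 5 lower. The part of these markers in the results was not tested. Fewer cells with a transcript and less transcript per cell cannot be told apart in these bulk samples. Here and below, higher and lower are relative to the other RNA of a library. The scaling was set by the genes themselves, most of which passed with the drug. The Adavivint libraries held 38433169 to 45288579 counts and the untreated THP-1 libraries 49722581 to 84409062. Whether the amount of RNA per cell changed was not tested.

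BCL2 stood at 146, 156 and 154 CPM in THP-1 with empty vector and at 14.6, 13.1 and 12.8 CPM with Adavivint added. In overexpressing cells it stood at 150, 167 and 167 CPM without and 16.9, 14.7 and 14.8 CPM with Adavivint. Every treated library lay far below every untreated one. The log2 fold change was -3.50 (SE 0.08, adjusted p = 7.76e-14), 11.3-fold lower, with empty vector and -3.40 (SE 0.07, adjusted p = 9.00e-14), 10.5-fold lower, with overexpression. The group with Adavivint and empty vector still held 1776 BCL2 counts in its 3 libraries, so the level was low but well measured.

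MCL1, the survival protein that holds BAK and is held by NOXA, stood at 236, 213 and 203 CPM with empty vector and at 293, 295 and 303 CPM after Adavivint. With overexpression it went from 192, 201 and 204 CPM to 307, 313 and 332 CPM. The treated and untreated libraries did not overlap in either background. The log2 fold change was 0.45 (SE 0.06, adjusted p = 7.73e-06) with empty vector and 0.66 (SE 0.06, adjusted p = 1.10e-07) with overexpression.

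BCL2L1, which encodes BCL-xL, rose by more. It stood at 50.7, 47.1 and 42.0 CPM with empty vector and 71.9, 72.3 and 77.2 CPM after Adavivint, and at 47.0, 44.4 and 45.0 CPM against 80.6, 76.5 and 79.9 CPM in overexpressing cells. No treated library came near an untreated one. The log2 fold changes were 0.66 (SE 0.07, adjusted p = 3.81e-07) and 0.79 (SE 0.07, adjusted p = 5.11e-08). Counts were given per gene, so the long and short splice forms of BCL2L1, MCL1 and BCL2L11, some with opposite effects on survival, were not told apart. The exons of BCL2L1 overlap the antisense gene ABALON over 1424 bases and those of BCL2L11 overlap MIR4435-2HG on the other strand over 727 bases. Neither has a row of its own in the table and the strand setting of the counting is not given, so reads of these partners cannot be told apart from the genes' own.

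BCL2A1, whose protein BFL-1 is typical of myeloid cells and an NF-kB target, was low in THP-1 and fell further. Its levels were 9.94, 10.6 and 11.7 CPM with empty vector, 7.38, 6.62 and 7.28 CPM with Adavivint, 11.0, 11.9 and 11.6 CPM with overexpression and 6.93, 6.88 and 7.92 CPM with both. The treated libraries were all lower than the untreated ones. The log2 fold change was -0.60 (SE 0.10, adjusted p = 4.16e-05) with empty vector and -0.68 (SE 0.10, adjusted p = 1.21e-05) with overexpression.

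BCL2L2, which encodes BCL-w, moved least among the survival genes. It ran from 21.8 to 27.9 CPM with empty vector, from 27.0 to 28.9 CPM with Adavivint, from 25.4 to 27.1 CPM with overexpression and from 28.0 to 28.5 CPM with both. The empty vector groups overlapped. The log2 fold change with empty vector was 0.18 (SE 0.08, adjusted p = 0.0371), and this call was lost when any of 4 single libraries was left out (library 1 or 2 of either group, adjusted p up to 0.153). With overexpression it was 0.10 (SE 0.07, adjusted p = 0.219). BCL2L2 shares 813 exonic bases with the readthrough gene BCL2L2-PABPN1 on its own strand and 206 with PPP1R3E on the other, both counted, so its level is uncertain.

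The effectors showed small differences. BAX stood at 52.5, 46.4 and 51.4 CPM with empty vector and at 43.8, 45.0 and 42.1 CPM with Adavivint, with no overlap between the groups. Its log2 fold change was -0.20 (SE 0.06, adjusted p = 0.00711), which upper quartile scaling moved to -0.12 (adjusted p = 0.083). BAK1 stood at 45.2, 43.9 and 44.3 CPM with empty vector and at 36.0, 34.6 and 36.0 CPM with Adavivint. The 2 groups were well apart, with a log2 fold change of -0.33 (SE 0.07, adjusted p = 7.62e-04). In overexpressing cells, where both effectors were already lower without drug, the values were -0.07 (SE 0.06, adjusted p = 0.302) for BAX and -0.10 (SE 0.07, adjusted p = 0.232) for BAK1, and upper quartile scaling put both just above 0 (0.03 and 0.001). With library totals BAK1 passed as lower there (-0.16, adjusted p = 0.0447).

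The BH3-only genes moved apart from each other. BCL2L11, which encodes BIM, stood at 74.7, 67.6 and 69.6 CPM with empty vector and at 115, 111 and 108 CPM with Adavivint. In overexpressing cells it went from 66.2, 68.4 and 68.7 CPM to 113, 114 and 120 CPM. Treated libraries were all above untreated ones, with log2 fold changes of 0.65 (SE 0.05, adjusted p = 3.34e-08) and 0.76 (SE 0.05, adjusted p = 5.86e-09).

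PMAIP1, which encodes NOXA, fell. It stood at 34.4, 34.7 and 35.0 CPM with empty vector and at 14.2, 13.3 and 11.3 CPM with Adavivint, and at 33.8, 39.0 and 39.6 CPM against 15.4, 18.2 and 16.7 CPM in overexpressing cells. The treated and untreated libraries did not overlap. The log2 fold changes were -1.43 (SE 0.09, adjusted p = 3.13e-09), 2.69-fold lower, and -1.17 (SE 0.09, adjusted p = 2.20e-08), 2.26-fold lower.

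BBC3, which encodes PUMA and is the scarcest of the untreated THP-1 RNAs per length, stood at 4.96, 5.97 and 6.13 CPM with empty vector and at 9.54, 11.8 and 9.45 CPM with Adavivint. The log2 fold change was 0.85 (SE 0.11, adjusted p = 5.31e-06), 1.80-fold higher. In overexpressing cells it was already at 8.91, 8.13 and 8.00 CPM without drug and stood at 8.93, 8.75 and 9.43 CPM with it. These 2 groups overlapped, and the log2 fold change was 0.11 (SE 0.11, adjusted p = 0.374).

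**Figure D2:**
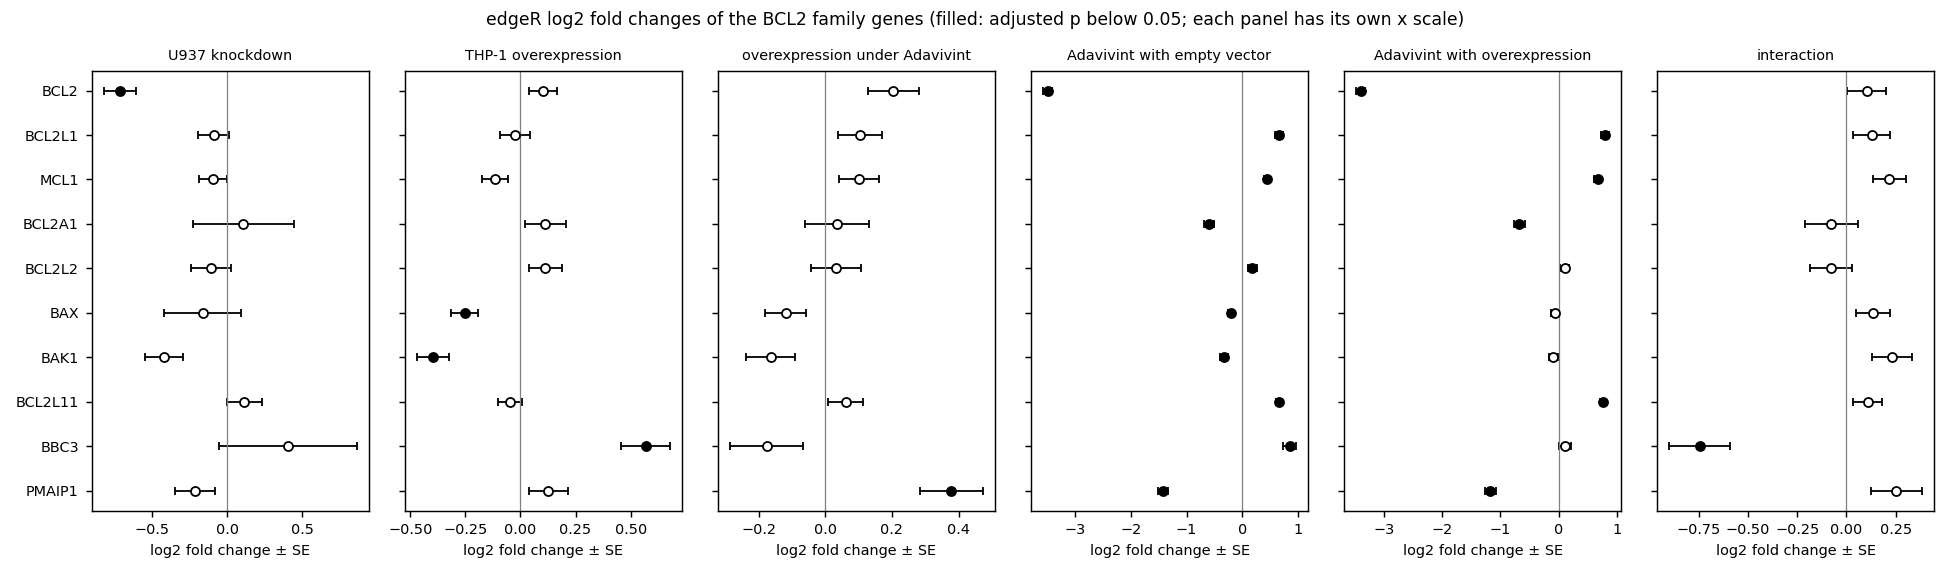
Log2 fold changes of the 10 genes (x axis, own scale per panel; bars, SE from edgeR) in 6 comparisons; the panel titled interaction is the Adavivint effect with overexpression minus that with empty vector. Filled points passed an adjusted p of 0.05; BCL2 lies at -3.50 and -3.40 in the 2 Adavivint panels and BBC3 is the filled point of the interaction panel.

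Between overexpressing and empty vector cells without drug, 3 death genes and none of the survival genes passed. BAX and BAK1 were lower and BBC3 was higher than with empty vector, which makes 3 of the 10 genes where 28.0% of the 15403 genes tested passed (14.9% higher, 13.0% lower). This share is near that of all genes, and the same number passed at an unadjusted p below 0.05 and in DESeq2. BAK1 went from 43.9 to 45.2 CPM with empty vector to 36.0, 33.8 and 30.8 CPM with overexpression, a log2 fold change of -0.40 (SE 0.07, adjusted p = 0.00176). BAX went to 44.1, 40.6 and 40.4 CPM, a log2 fold change of -0.25 (SE 0.06, adjusted p = 0.00840). BBC3 had a log2 fold change of 0.57 (SE 0.11, adjusted p = 0.00251). In these 3 genes no overexpressing library overlapped an empty vector library, and the 3 calls held when each of the 6 libraries was left out in turn. The share of all genes with either trait was not counted, so neither sets the 3 genes apart. BCL2 had a log2 fold change of 0.10 (SE 0.07, adjusted p = 0.267), BCL2L1 of -0.03 (SE 0.07, adjusted p = 0.817), BCL2A1 of 0.11 (SE 0.09, adjusted p = 0.395), BCL2L11 of -0.05 (SE 0.05, adjusted p = 0.551) and PMAIP1 of 0.13 (SE 0.09, adjusted p = 0.318). MCL1 at -0.12 (adjusted p = 0.167) and BCL2L2 at 0.11 (adjusted p = 0.285) passed only without the third empty vector library, at -0.17 (adjusted p = 0.0425) and 0.21 (adjusted p = 0.019).

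With Adavivint in both groups, 1 of the 10 genes differed between overexpressing and empty vector cells, where 8.50% of all genes did (3.69% higher, 4.80% lower). PMAIP1 was at 15.4, 18.2 and 16.7 CPM with overexpression against 14.2, 13.3 and 11.3 CPM without, a log2 fold change of 0.38 (SE 0.09, adjusted p = 0.0269). The lowest overexpressing library stood just above the highest empty vector one, and the call was lost without library 2 or library 3 of either group (adjusted p up to 0.115). BAK1 at -0.16 (SE 0.07, adjusted p = 0.191), BAX at -0.12 (SE 0.06, adjusted p = 0.265) and BBC3 at -0.18 (SE 0.11, adjusted p = 0.362) did not pass.

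The Adavivint effect itself differed between the 2 backgrounds for 1 of the 10 genes, where 19.3% of all genes tested passed (8.04% higher, 11.2% lower). This was BBC3, whose drug effect was smaller with overexpression by -0.74 on the log2 scale (SE 0.15, adjusted p = 0.00623), a call that held without each of the 12 libraries in turn. For BAK1 the difference was 0.23 (SE 0.10, adjusted p = 0.131) and for BAX 0.13 (SE 0.09, adjusted p = 0.309), so their smaller drug effects with overexpression were not shown to differ. MCL1 rose by 0.22 more with overexpression (SE 0.08, adjusted p = 0.0894), and this passed in DESeq2 (0.23, adjusted p = 0.0265). It also passed with upper quartile scaling (adjusted p = 0.0312) and without the third empty vector library (adjusted p = 0.0258). S100A9 itself was higher with the drug, by 1.11 on the log2 scale with empty vector and by 1.93 with overexpression. Neither background thus kept a fixed S100A9 level. The overexpression effect, the 2 drug effects and the difference between these drug effects share libraries and are not independent.

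**Figure D3:**
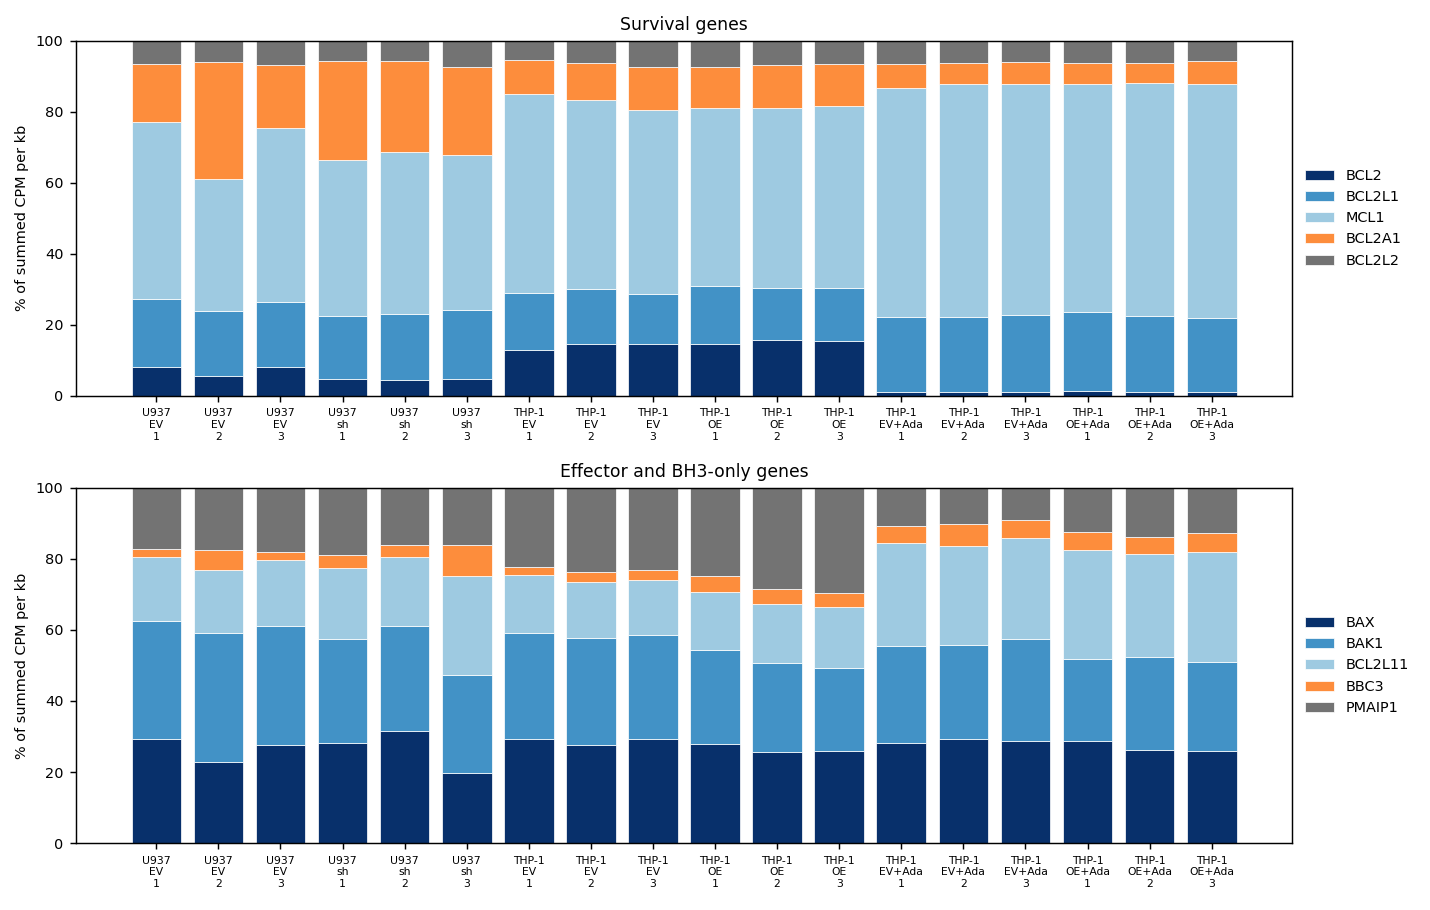
Share of each gene in the summed CPM per kb of the 5 survival genes (top) and of the 5 effector and BH3-only genes (bottom), as percent, in each of the 18 libraries. BCL2 narrows from 14.0% in THP-1 with empty vector to 1.10% with Adavivint, and BCL2L11 widens from 15.7% to 28.5% of its set.

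Within a library the make-up of the family does not depend on scaling between libraries. In THP-1 with empty vector MCL1 made up 53.8% ± 2.21 (SD, n = 3) of the survival RNA per length, and with Adavivint 65.0% ± 0.426. BCL2L1 went from 15.2% ± 0.957 to 21.3% ± 0.432, BCL2 from 14.0% ± 0.932 to 1.10% ± 0.0933 and BCL2A1 from 10.7% ± 1.24 to 6.24% ± 0.319. The library ranges of these 4 genes did not overlap. Overexpressing cells had nearly the same make-up after the drug, with MCL1 at 65.3% ± 0.829 and BCL2 at 1.19% ± 0.117. Among the death genes BCL2L11 went from 15.7% ± 0.483 to 28.5% ± 0.433 and PMAIP1 from 23.1% ± 0.708 to 9.85% ± 0.835, while BAX stayed at 28.7% ± 1.07 and 28.8% ± 0.522. The log2 ratio of summed survival to summed death RNA per length was 0.46 ± 0.05 with empty vector, 0.56 ± 0.04 with overexpression, 0.83 ± 0.07 with Adavivint and 0.95 ± 0.06 with both. Without division by length the order turned, with 1.13 and 1.23 untreated against 0.97 and 1.07 treated, and BCL2 has the greatest exon length of the 10 genes (11765 bases). The ratio is a sum over RNAs and does not measure protein.

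In U937 the knockdown went with less BCL2. It stood at 83.0, 71.7 and 83.7 CPM with empty vector and at 49.6, 47.5 and 49.3 CPM with shS100A9. Every knockdown library was below every control library. The log2 fold change was -0.71 (SE 0.11, adjusted p = 0.0338), and BCL2 was the 1 gene of 10 that passed, where 1.77% of the 13016 genes tested did (0.230% higher, 1.54% lower). The value moved only between -0.79 and -0.67 when single libraries were left out, but the call was lost in 5 of those 6 fits (adjusted p up to 0.182) and kept without the second empty vector library (adjusted p = 0.0175). Without both libraries that stood apart the log2 fold change was -0.79 (adjusted p = 6.2e-05).

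The same 2 libraries carried much of the spread of the other genes. BAK1 stood at 45.4, 45.1 and 43.1 CPM with empty vector and at 33.8, 37.6 and 28.9 CPM with the knockdown, with no overlap, but its log2 fold change of -0.42 (SE 0.13) did not pass (adjusted p = 0.196). BCL2A1 stood at 15.7, 38.9 and 17.0 CPM with empty vector and at 27.7, 25.1 and 24.4 CPM with the knockdown, so the second control library alone made the groups overlap (log2 fold change 0.11, SE 0.34, adjusted p = 0.922). BBC3 was high in both libraries that stood apart, at 10.3 CPM against 4.25 and 4.27 in the other controls and at 13.0 CPM against 5.94 and 5.97 in the other knockdown libraries (0.40, SE 0.46, adjusted p = 0.762). BAX was low in them, at 33.3 CPM against 46.3 and 41.6 and at 24.0 CPM against 38.1 and 46.5 (-0.16, SE 0.26, adjusted p = 0.838). DDIT3, the stress factor CHOP, was at 35.6 CPM in the second control library against 7.83 and 8.87 in the others. In the knockdown libraries DDIT3 was at 20.4, 16.8 and 21.2 CPM, so the third of them did not stand apart in this gene.

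With both set aside, which leaves 2 against 2 libraries and was tried with the data in view, 5 of the 10 genes passed and 4296 of all genes did. The number of genes tested in that smaller fit is not given here, so its share cannot be set beside 5 of 10. The fit of all U937 libraries tested 13016 genes, of which 231 passed. Many more genes thus passed with both set aside, and the 5 calls alone do not set the members apart. Of these 5, BCL2, BAK1 (-0.31, adjusted p = 0.0127) and BCL2L2 (-0.21, adjusted p = 0.0402) were lower, and BCL2A1 (0.69, adjusted p = 8.24e-04) and BBC3 (0.48, adjusted p = 0.0334) were higher. MCL1 ran from 172 to 191 CPM over all U937 libraries (-0.09, SE 0.09, adjusted p = 0.715), BCL2L1 from 53.7 to 65.7 CPM (-0.09, SE 0.10, adjusted p = 0.773), BCL2L11 from 66.9 to 87.6 CPM (0.12, SE 0.11, adjusted p = 0.716) and PMAIP1 from 17.1 to 23.6 CPM (-0.21, SE 0.13, adjusted p = 0.551).

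Between the lines, with empty vector in both, BCL2 and PMAIP1 were lower in U937 than in THP-1 and BCL2A1 was higher, 3 of the 10 genes where 26.2% of the 13695 genes tested passed (11.4% higher in U937, 14.8% lower). BCL2 was at 79.5 ± 6.75 CPM in U937 and 152 ± 5.39 CPM in THP-1 (SD, n = 3), a log2 difference of -0.95 (SE 0.09, adjusted p = 4.62e-04). PMAIP1 was at 23.0 ± 0.959 and 34.7 ± 0.322 CPM, a log2 difference of -0.61 (SE 0.08, adjusted p = 0.00177). The BCL2A1 difference of 1.14 (SE 0.34) only just passed (adjusted p = 0.0492) and was lost under 6 other settings and without any 1 of the THP-1 libraries (adjusted p up to 0.152). In U937 without the second library its 2 levels of 15.7 and 17.0 CPM still lay above the highest THP-1 level of 11.7 CPM. Line and vector construct differ together in this comparison and cannot be told apart. The lines are named as the labels give them, and the identity of the cells was not tested beyond the following values. The 2 sets of libraries were close in general: 428 of 12797 genes above 1 CPM on average (3.345%) differed over 4-fold, and r between libraries of the 2 lines, across genes, was 0.943 to 0.957. CDKN2A, a cell cycle inhibitor gene known to be deleted in THP-1, was at 46.6 to 59.6 CPM in the 12 libraries labelled THP-1 and at 55.8 to 76.7 CPM in the 6 labelled U937. It was looked at with the data in view, and its level goes against the THP-1 label. The values above therefore compare libraries by label only.

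By order of level, BCL2 ran from THP-1 untreated through U937 with empty vector and U937 with knockdown to THP-1 with Adavivint, and among these only the 2 untreated THP-1 groups overlapped. MCL1 and BCL2L11 were highest with Adavivint, where the 2 BCL2L11 groups overlapped and the 2 MCL1 groups did not. The MCL1 difference between those 2 groups did not pass edgeR's test (log2 fold change 0.10, SE 0.06, adjusted p = 0.342). BCL2A1 was highest in U937, BAX in THP-1 with empty vector, and PMAIP1 in untreated THP-1. For BCL2L2 each group overlapped the next.

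Several other genes of the BCL2 family moved by more with Adavivint than any member but BCL2, and none moved by as much as BCL2. Of the 13 other family genes listed, 10 had enough counts for a test in the THP-1 fit. Adavivint with empty vector raised 5 and lowered 3 of these, near the 85.3% of all genes that passed, with a median log2 fold change of 0.27 against 0.06 over all genes. BMF, a BH3-only protein tied to the cytoskeleton, stood at 20.2, 19.5 and 24.3 CPM with empty vector, 112, 117 and 105 CPM with Adavivint, 42.4, 37.9 and 38.4 CPM with overexpression and 104, 104 and 103 CPM with both. It was thus higher with overexpression (log2 fold change 0.90, SE 0.07, adjusted p = 8.91e-06) and higher with the drug (2.38, SE 0.07, adjusted p = 1.54e-12). Both drug groups lay at nearly the same level. BIK, a BH3-only protein of the endoplasmic reticulum, stood at 7.51, 6.98 and 7.29 CPM with empty vector and at 0.88, 0.74 and 0.88 CPM with Adavivint (-3.12, SE 0.16, adjusted p = 1.78e-10). BIK also fell in the U937 knockdown, from 2.32, 2.38 and 2.91 CPM to 0.36, 0.57 and 0.24 CPM (-2.71, SE 0.37, adjusted p = 0.0258). No BIK library of the knockdown overlapped a control. The call held in 2 of 6 fits with 1 library left out (adjusted p up to 0.167) and was lost with a replicate block (adjusted p = 0.21). Without both libraries that stood apart it was -2.49 (adjusted p = 0.00109).

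BCL2L12 fell with Adavivint (-1.60, SE 0.08, adjusted p = 1.57e-10), BCL2L15 rose from a low level (2.96, SE 0.15, adjusted p = 1.77e-10) and BAD, a BH3-only protein set by growth factor signals, rose (0.90, SE 0.09, adjusted p = 2.23e-07). BID, which links death receptors to BAX, fell slightly (-0.30, SE 0.09, adjusted p = 0.00470). BNIP3 and BNIP3L, mitophagy receptors, rose with overexpression (0.47, SE 0.07 and 0.57, SE 0.08). BCL2L10 went from between 0.0329 and 0.118 CPM to between 0.574 and 0.712 CPM. HRK was at most 0.302 CPM in all THP-1 libraries and was between 0.725 and 1.52 CPM in U937. BOK and BCL2L14 were not tested in any comparison, with at most 0.177 CPM in any library.

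**Figure D4:**
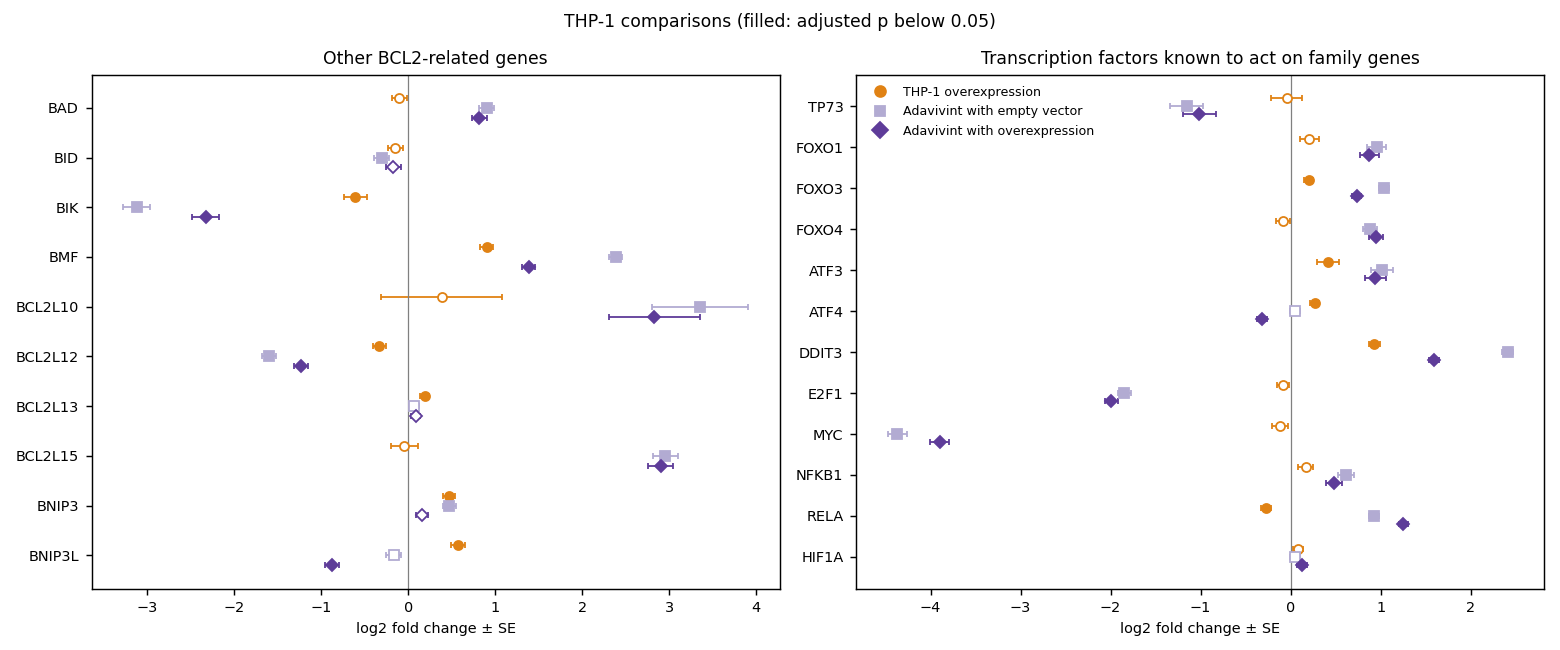
Log2 fold changes (x axis; bars, SE from edgeR) of other BCL2-related genes (left) and of 12 transcription factors known to act on family genes (right) in 3 THP-1 comparisons. Filled symbols passed an adjusted p of 0.05; MYC lies at -4.37 and -3.90 and BMF at 2.38 and 1.38 with Adavivint.

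Transcription factors that act on family genes were followed as 13 genes. With Adavivint and empty vector 8 rose and 3 fell, again near the 85.3% of all genes, with a median log2 fold change of 0.62. MYC fell from 364, 349 and 331 CPM to 17.2, 18.4 and 15.0 CPM (-4.37, SE 0.11, adjusted p = 2.19e-13). DDIT3, which can raise BIM and lower BCL2, went from 7.84, 8.06 and 7.88 CPM to 42.0, 42.2 and 42.3 CPM (2.41, SE 0.06, adjusted p = 2.47e-13). FOXO3, a known activator of BIM and PUMA transcription, rose (1.04, SE 0.05, adjusted p = 1.73e-10). Besides MYC, E2F1 (-1.85, adjusted p = 1.6e-11) and TP73 (-1.16, adjusted p = 3.47e-05) fell. The part of any of these factors in the changes of the members was not tested. With overexpression alone DDIT3 rose (0.93, SE 0.06, adjusted p = 1.19e-06), as did ATF4 (0.27), FOXO3 (0.20) and ATF3 (0.42), and RELA fell (-0.28). With 1 library left out FOXO3 passed in 4 of 6 fits and ATF3 in 3 of 6 (adjusted p up to 0.0611 and 0.109). None of these values measures the activity of a factor or its binding to a member.

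Downstream of the mitochondria, 2 of 15 caspase and apoptosome genes rose and 12 fell with Adavivint and empty vector (median log2 fold change -0.59), with DFFA at -2.29, AIFM1 at -1.47 and CASP10 at 1.47. Of 13 inhibitor of apoptosis and death receptor genes 8 rose and 3 fell, and the smallest p-values were those of CFLAR (1.78), BIRC2 (1.57) and BIRC6 (0.81), which restrain caspases or their activation. Of 6 outer membrane genes 1 rose and 4 fell, among them VDAC1 at -1.19. Of 6 genes acting on MCL1 protein turnover 3 rose and 2 fell, with FBXW7, part of a ubiquitin ligase for MCL1, at 1.68. Counted over these lists and the other 2, 54 of 63 genes tested passed in this comparison, near the share of all genes.

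In overexpressing cells without drug 30 of the 63 passed, 15 higher and 15 lower, where 28.0% of all genes did. Here 5 of 15 caspase and apoptosome genes passed, each of them lower, with CYCS at -0.45, HTRA2 at -0.26 and AIFM1 at -0.23. BIRC3 was higher by 1.23 (SE 0.14, adjusted p = 1.13e-04). In the U937 knockdown BIK was the 1 gene of 62 that passed, with 3 at an unadjusted p below 0.05, where 1.77% of all genes passed, and its call was lost in 4 of the 6 fits with 1 library left out.

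For each member the genes with the most similar level over the 18 libraries were sought among 12903 genes, as Pearson's r of log2 CPM with a pseudocount of 0.5. The 6 Adavivint libraries shape these values for genes that the drug moved. They were RCAN1 (0.990) and DCAF12 (0.988) for BCL2, H2AC6 (0.991) and TOR1AIP1 (0.990) for MCL1, and CNBP (0.983) and CHMP4B (0.977) for BCL2L1. BCL2A1 was most like DSN1 (0.969) and IL2RG (0.969), and BCL2L2 was like APPL2 (0.893). TUBB6 (0.947) and CFL1 (0.937) came closest to BAX, and SELENOW (0.916) and SLC20A1 (0.881) to BAK1. BCL2L11 had THUMPD3 (0.984) and DEDD (0.983), BBC3 had FAM193B (0.968) and SENP7 (0.963), and PMAIP1 had SKA2 (0.980) and FCGR1A (0.980).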

How the data were processed

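Bulk RNA-seq of 18 libraries was used as the authors deposited it, a table of whole-number read counts per gene. Reads were aligned with HISAT2 2.0.4 per the submitters' processing notes. The counter, genome build, annotation and strandedness: not given in the sources used here. Ensembl identifiers were matched to GENCODE 29 (18482 of 18670 rows) for positions and exon lengths. Symbols came from a separate list of gene names, or from GENCODE 29 where that list had none (18660 rows in all). The 10 members and the gene lists were chosen with earlier results of these data known. Tests were edgeR 4.0.16 quasi-likelihood fits with TMM factors, filterByExpr and Benjamini-Hochberg adjustment over all genes (two-sided, threshold 0.05). U937 libraries were fitted alone, the 12 THP-1 libraries in 1 fit and the 6 untreated empty vector libraries in another. The fits were also run on simulated data in which all genes shared the same spread and no library stood apart. Those data were unlike the U937 libraries. CPM used TMM factors over all 18 libraries. Named were the 10 members, up to 3 genes of each other list per comparison by smallest p, any other family or transcription factor gene, and the 2 genes most like each member; a few of these genes and 1 list are not reported here. Alternatives changed the scaling, filter, tool (DESeq2 1.42.0), libraries and the replicate block. Protein features were not analysed here.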

Additional observations from a re-analysis of the deposited data

Results flagged for a closer look

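For 19 of the 71 genes tested and reported here (26.8%) the Adavivint effect with S100A9 overexpression differed from that with empty vector in the test of the difference itself (edgeR, adjusted p below 0.05). All values are differences of log2 fold changes, overexpression minus empty vector, on 12 THP-1 libraries. Of all genes tested 19.3% passed. With 1 library left out at a time, 11 of the 19 passed in all 12 fits. FADD passed in 11, BIK in 8, BNIP3 in 5, MYC and CASP2 in 4, and BCL2L12, DFFA and TNFRSF10B in 3 (adjusted p up to 0.107). Among the 10 members only BBC3 did (-0.74, adjusted p = 0.00623). Among other family genes the difference was -0.998 for BMF, -0.71 for BNIP3L, -0.32 for BNIP3, 0.79 for BIK and 0.36 for BCL2L12. BMF, BNIP3 and BNIP3L, like BBC3, were already higher with overexpression before the drug, and BIK and BCL2L12 were already lower. The same untreated libraries enter the overexpression effect and, with opposite sign, the difference of drug effects. These directions are therefore not independent of the differences.

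Among the transcription factors the difference was -0.82 for DDIT3, -0.37 for ATF4, -0.30 for FOXO3, 0.47 for MYC and 0.33 for RELA. Among caspase and apoptosome genes it was 0.56 for CYCS, 0.32 for DFFA and -0.24 for CASP2. Among inhibitor of apoptosis and death receptor genes it was -1.29 for BIRC3, 0.62 for BIRC5, 0.36 for FADD and -0.24 for TNFRSF10B, and TOMM20 of the outer membrane had -0.37.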

How the results depend on the processing

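Over the alternatives to the 10 members' log2 fold changes, 975 values kept direction and side of the threshold, 28 lost and 17 gained a call and 20 changed sign, none of the last called in either fit. The cause of these shifts was not tested. The number of members called rose to 2 in the U937 knockdown and to 5 between the lines with all 18 libraries in 1 fit, to 5 between the lines and 2 for the difference of drug effects with DESeq2, to 2 for the latter with upper quartile factors, and to 5 in U937 without the libraries that stood apart. It was 9 for the drug with empty vector under library totals, no filter, only the 2 groups compared and upper quartile factors, and 7 for the drug with overexpression under library totals and upper quartile factors. Between the lines 4 settings gave 2 (the filter at 1 CPM, DESeq2 size factors in edgeR, library totals and no filter). Leaving out 1 library at a time, the number ran from 9 to 10 and stayed at 6 for the drug effects, from 3 to 5 for overexpression, from 0 to 1 for overexpression under Adavivint, from 0 to 1 for the knockdown, from 1 to 2 for the difference and from 2 to 3 between the lines. In the knockdown 231 of all genes passed, against 879 with DESeq2, 1932 with all 18 libraries, 4296 without the libraries that stood apart and 18 to 362 with 1 library left out. Libraries of the same replicate number did not deviate alike from their group means (U937 correlations 0.241, -0.509 and -0.433, THP-1 from -0.114 to 0.109). With few libraries per group, and those that stood apart in U937, this cannot exclude that a number shares a culture or handling. With a replicate block 0 members passed in the knockdown, where 3 genes did, and BCL2 had -0.71 (adjusted p = 0.264). The block gave 9 with the drug and empty vector, 2 between the lines and the main number elsewhere.

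Sign changes in log2 fold change touched values near 0 or those set by 1 library. Leaving out single libraries in the U937 knockdown, BAX ran from -0.386 to 0.069, BBC3 from -0.068 to 0.948 and BCL2A1 from -0.115 to 0.641, and BCL2L11 was -0.023 without both that stood apart. Between the lines BAK1 ran from -0.029 to 0.008, BBC3 from -0.424 to 0.338, BCL2L11 from -0.038 to 0.036, BCL2L2 from -0.024 to 0.164 and S100A9 from -0.324 to 0.303, and with all 18 libraries BAK1 was 0.0 and BCL2L11 0.004. For overexpression BCL2L1 ran from -0.102 to 0.052 and BCL2L11 from -0.081 to 0.008, and under Adavivint BCL2A1 from -0.031 to 0.070. With library totals BCL2A1 was -0.020 and BCL2L2 -0.023 in the latter. For the drug with overexpression, upper quartile factors gave BAK1 0.001 and BAX 0.027. The median of all genes with Adavivint moved from 0.06 to 0.10 with DESeq2 size factors and to 0.14 with upper quartile factors. Summed CPM of the 10 members with library totals was 646.8 with overexpression, 635.7 with Adavivint and 640.6 with both, against 632.2, 632.6 and 660.7. It ran from 647.1 to 662.3, 628.2 to 640.2, 631.7 to 634.1, 650.6 to 667.5, 556.4 to 560.2 and 500.0 to 507.9 without single libraries in the order THP-1 empty vector, overexpression, Adavivint, both, U937 control and knockdown. The log2 ratio of survival to death RNA without division by length was 1.02 in U937 controls and, in the 4 THP-1 groups, 1.13, 1.23, 0.97 and 1.07.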
